A study of Mus musculus with 24 samples.

Results

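The change in transcripts when pancreatic cancer cells share a culture with hepatocytes was measured in HY19636, a cell line of mouse pancreatic ductal adenocarcinoma (PDAC). The cells were wild type (WT) for Phgdh, the enzyme that commits glucose carbon to serine, and the medium held serine and glycine. The groups are WT cells in coculture with hepatocytes and WT cells in monoculture, with 3 libraries each, so 6 of the 24 libraries of the series. Each gene with at least 1 FPKM (fragments per kilobase of gene length at a common depth) in at least 3 of the 24 libraries was described, which kept 12061 of 54532 genes. The other 18 libraries enter only as further coculture pairs and in the estimate of spread. They are WT cells in medium free of serine and glycine and Phgdh knockout (KO) cells in either medium, each in coculture and in monoculture. All groups share the same line, and the labels do not say how many KO clones were used. The sources used here do not give the source and number of the hepatocytes, the length of coculture, the oxygen level, the way both cell types were kept apart or separated, or whether replicates were separate cultures. The p-values therefore rest on differences among libraries of a group that may be only technical.

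Hepatocytes are the metabolic cells of the liver, the organ to which PDAC most often spreads. In mammalian cells the hypoxia-inducible factors (HIF) are kept low by prolyl hydroxylases of the Egln family, which use oxygen to mark HIF alpha subunits for removal by the VHL ubiquitin ligase. When hydroxylation falls, HIF dimers bind DNA at the core ACGTG and switch on genes for glucose uptake, glycolysis, blood vessel growth, mitophagy and collagen modification, along with Egln1 and Egln3 themselves. Adm and Egln3, which had the largest coculture changes, belong to that response, and the start regions of 5 further genes of it or of glycolysis are shown first. They are the 5 largest rises among hypoxia and glycolysis genes whose start region, where RefSeq's table holds it, has the core at more than 1 place.

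The sequences run from 250 bases before to 50 after the RefSeq gene start (GRCm38.p6), 5′ to 3′ on the gene's strand, with each ACGTG, or its reverse complement CACGT, in capitals. P4ha2 (chr11:54100674-54100973, plus strand) encodes a collagen prolyl hydroxylase subunit, Ankrd37 (chr8:45999801-46000100, minus strand) an ankyrin repeat protein, Slc16a3 (chr11:120948817-120949116, plus strand) the lactate exporter MCT4, Anxa2 (chr9:69453433-69453732, plus strand) a membrane-binding annexin and Pgk1 (chrX:106186850-106187149, plus strand) the glycolytic enzyme phosphoglycerate kinase.
P4ha2: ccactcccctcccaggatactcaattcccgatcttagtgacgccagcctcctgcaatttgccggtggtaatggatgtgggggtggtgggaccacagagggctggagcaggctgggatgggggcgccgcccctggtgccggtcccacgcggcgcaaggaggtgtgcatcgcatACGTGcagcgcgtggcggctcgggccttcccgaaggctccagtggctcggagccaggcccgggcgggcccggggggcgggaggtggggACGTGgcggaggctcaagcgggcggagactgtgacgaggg
Ankrd37: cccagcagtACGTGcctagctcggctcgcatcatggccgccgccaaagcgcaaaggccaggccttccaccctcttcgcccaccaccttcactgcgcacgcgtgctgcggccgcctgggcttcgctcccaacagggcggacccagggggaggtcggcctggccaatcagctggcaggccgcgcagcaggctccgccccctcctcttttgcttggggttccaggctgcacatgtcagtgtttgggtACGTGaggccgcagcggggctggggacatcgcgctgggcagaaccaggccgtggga
Slc16a3: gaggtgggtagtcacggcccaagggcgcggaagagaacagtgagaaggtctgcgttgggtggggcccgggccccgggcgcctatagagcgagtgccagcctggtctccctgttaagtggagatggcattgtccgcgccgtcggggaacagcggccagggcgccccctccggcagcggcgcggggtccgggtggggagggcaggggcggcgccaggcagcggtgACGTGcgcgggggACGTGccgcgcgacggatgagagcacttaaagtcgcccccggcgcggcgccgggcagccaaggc
Anxa2: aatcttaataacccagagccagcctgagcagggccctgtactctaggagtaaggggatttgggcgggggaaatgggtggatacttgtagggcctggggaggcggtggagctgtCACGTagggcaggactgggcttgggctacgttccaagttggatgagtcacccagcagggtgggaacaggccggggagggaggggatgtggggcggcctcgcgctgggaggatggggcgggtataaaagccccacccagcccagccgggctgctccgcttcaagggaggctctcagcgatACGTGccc
Pgk1: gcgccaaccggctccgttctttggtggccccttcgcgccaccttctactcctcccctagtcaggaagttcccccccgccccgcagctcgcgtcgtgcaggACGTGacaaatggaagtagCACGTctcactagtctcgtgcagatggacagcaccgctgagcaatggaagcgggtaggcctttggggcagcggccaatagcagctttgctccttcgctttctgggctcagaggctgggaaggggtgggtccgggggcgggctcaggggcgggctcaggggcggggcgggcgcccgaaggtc
In Slc16a3 both cores lay close before the start, at −27 and −14 bases from it, and in Pgk1 both lay farther off, at −150 and −131 bases. The letters ACGTG were searched on both strands, and overlapping matches counted once. All 22 tested glycolysis genes had a start region in the RefSeq table, and 12 of the 22 (54.55%) held the core, against 19.62% of all 32851 start regions in the table and 27.17% of the 8458 tested genes found there. Among the tested hypoxia genes only 18 of 29 were found in that table, too few for a share. Of the genes found there, 30.3% of those called higher in coculture held the core, and 26.27% of those called lower. The share was 31.34% among those higher by at least 1, so these shares lay near the 27.17% of all tested genes. Adm, Vegfa, Pfkp, Eno1 and Pkm held 0 matches, and the 12 glycolysis genes with a core include Pfkm, which fell. A match describes letters and not a binding site.

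Of 16 markers of PDAC and pancreatic ductal cells 11 reached 1 FPKM in each group. At 0 in all libraries of the group were 2 of them in coculture and 3 in monoculture. Defining hepatocyte markers were at or near 0 in both groups. The 6 libraries held 17101691 to 19459764 reads in genes, and replicates correlated at 0.9888 to 0.9914 (Pearson, across genes on the log2 scale). The 37 hepatocyte markers summed to 21.3 to 24.02 FPKM in coculture, against 18.1 to 20.4 FPKM in monoculture, and nearly all of that was Hnf4a, a transcription factor that had 19.4, 19.7 and 20.7 FPKM in coculture, against 18.4, 16.7 and 17.5 FPKM in monoculture. Its small rise (0.17, adjusted p = 0.034) was called in 8 of 15 alternative settings. Leaving out Hnf4a and Ass1, the 35 others, which include albumin (Alb), held 64 of 56210664 reads in coculture, against 44 of 52573694 reads in monoculture. Alb was listed at 0 in all 3 cocultures, so the changes below came with almost no hepatocyte transcript in the libraries. Markers of pancreatic ductal and PDAC cells, keratins among them, summed to 3071 to 3159 FPKM in coculture, against 1845 to 1932 FPKM in monoculture. Of the 11 of these markers tested 7 rose and 3 fell (median change 0.36), and in TPM 5 rose and 3 fell. Cholangiocyte markers, which share keratins with them, summed to 1181 to 1230 FPKM in coculture, against 856 to 877 FPKM in monoculture. Both sums hold Krt19, which averaged 697 ± 33.3 FPKM in coculture and 67.1 ± 2.83 FPKM in monoculture, so the other cholangiocyte markers summed to less in coculture, and of the 8 tested 3 rose and 2 fell (median change −0.15). Of the 18 macrophage and Kupffer cell markers only Cd14 and Cd68 reached 1 FPKM, and the sum was 13.8 to 15.3 FPKM in coculture, against 26.5 to 27.4 FPKM in monoculture. Endothelial markers summed to 2.27 to 2.88 FPKM in coculture, against 1.49 to 1.82 FPKM in monoculture, stellate and fibroblast markers to 1.91 to 2.01 FPKM, against 1.09 to 1.20 FPKM, and acinar and islet markers to 2.24 to 3.29 FPKM, against 3.25 to 3.94 FPKM. In bulk RNA fewer cells of one kind and less RNA per cell cannot be told apart.

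Phgdh (GRCm38; ENSMUSG00000053398, chromosome 3, 98313170 to 98339990) was intact by label in these cells and rose modestly. It had 1331, 1236 and 1333 FPKM in coculture, against 934, 929 and 903 FPKM in monoculture (log2 change 0.49 ± 0.12, adjusted p = 0.00272). All 3 cocultures lay above all 3 monocultures. In KO cells with serine and glycine Phgdh averaged 874 ± 9.34 FPKM in coculture and 483 ± 96.6 FPKM in monoculture (SD, n = 3 each). Its transcript was thus lower but far from absent in the libraries labelled KO, and since the sources used here do not say which stretch of the gene was edited, the RNA level does not check that label.

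Coculture changed many genes by small amounts and fewer by large ones, and the large changes were nearly all rises. Of the 12061 tested genes 3763 passed an adjusted p of 0.05 (31.2%) and are termed called, 1969 higher (16.3%) and 1794 lower (14.9%) in coculture. The median size of a called change was 0.40 on the log2(FPKM + 1) scale. That scale shrinks the change of genes at low FPKM. At least 1 on that scale were 313 rises (2.6%) and 44 falls (0.365%), and at least 2 were 55 rises and 1 fall. The 3 and 3 libraries did not overlap for 6193 genes (51.3%). The balance of rises and falls depends on scaling: of the called genes 52.33% were higher with FPKM as deposited, but 40.66% after rescaling to TPM, 46.25% after quantile normalization and 35.61% with limma voom on the reads recovered from FPKM. The median change over all genes was −0.02 as deposited and −0.11 with voom, a shift of −0.09. For every gene named below as having risen or fallen, all 3 cocultures lay on one side of all 3 monocultures. Counts for the gene lists below are to be read beside the shares over all tested genes, 16.3% higher and 14.9% lower.

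The largest rise was in Adm (ENSMUSG00000030790, chromosome 7, 110627661 to 110629820), which encodes the vasodilator peptide adrenomedullin. Adm had 35.3, 36.05 and 32.7 FPKM in coculture, against 0.380, 0.702 and 0.397 FPKM in monoculture (log2 change 4.58 ± 0.11, adjusted p = 3.32e-17), a ratio of means of 70.4. Egln3, an oxygen sensor that is itself switched on by HIF, had 107, 101 and 104 FPKM in coculture, against 3.78, 3.68 and 4.63 FPKM in monoculture (log2 change 4.39 ± 0.07, adjusted p = 2.99e-19). The secreted hormone Stc1 had 20.6, 22.1 and 21.1 FPKM in coculture, against 1.21, 1.41 and 1.01 FPKM in monoculture (log2 change 3.34 ± 0.09, adjusted p = 1.87e-16). In each of these the lowest coculture was many times the highest monoculture. Other leading rises were in Selenbp1 (3.56 ± 0.14), a methanethiol oxidase with a close copy, Selenbp2, between which reads could be split, the cytochrome P450 gene Cyp2s1 (3.51 ± 0.06), the lysyl oxidase-like gene Loxl2 (3.38 ± 0.10), which crosslinks collagen, and the ductal keratin Krt19 (3.36 ± 0.06). They were followed by the mitophagy receptor Bnip3 (3.17 ± 0.07), Kctd11 (3.12 ± 0.11), the beta-arrestin Arrb1 (2.94 ± 0.07), P4ha2 (2.92 ± 0.07), the phosphofructokinase Pfkp (2.86 ± 0.05), Smtnl2 (2.81 ± 0.10) and the lipoprotein lipase inhibitor Angptl4 (2.81 ± 0.08). Their adjusted p-values ran up to 1.39e-13, and each of these genes was called with the same sign in all 15 alternative settings. The plot of the leading genes by library shows how narrow each group was beside the gap.

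**Figure D1:**
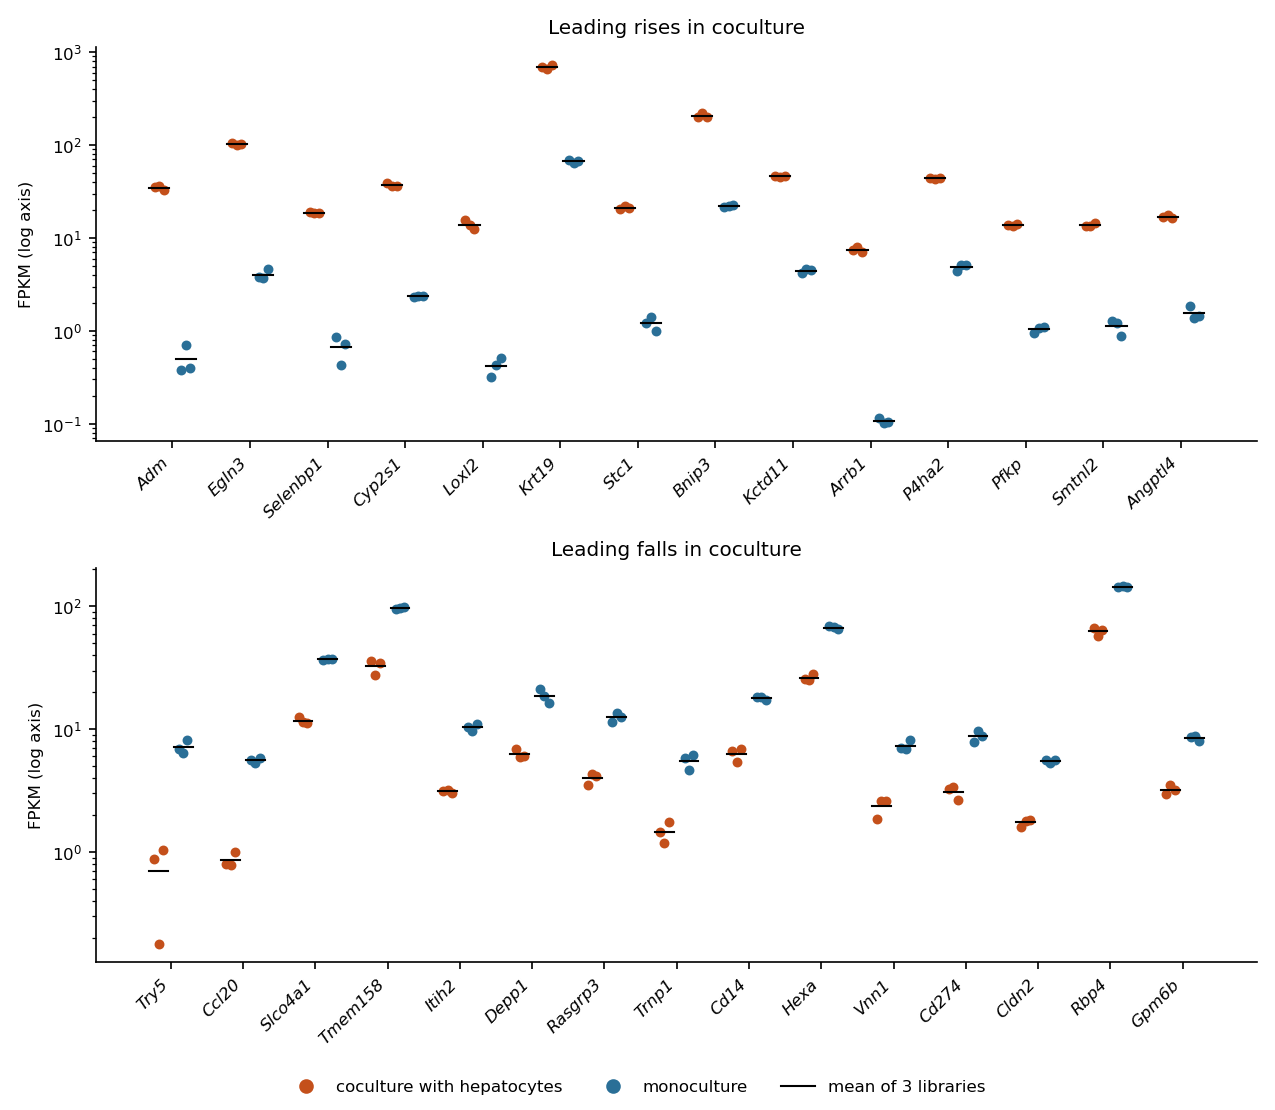
FPKM on a log axis in each library for the leading rises (top) and falls (bottom), with coculture points left of monoculture points for each gene and a line at the mean of 3 libraries. No gene's groups overlap, and the gap is widest for Adm (70.4-fold by means) and Arrb1 (69.9-fold). On the log2(FPKM + 1) scale, which shrinks changes at low FPKM, Arrb1 changed by 2.94, against 4.58 for Adm.

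Most listed genes of the hypoxia response rose. This list, like the others here, was chosen with earlier results of these data known, so its counts describe and do not test. Of 29 tested members 24 rose and 1 fell, against 16.3% higher and 14.9% lower among all tested genes, and their median change was 1.60, against −0.02 for all genes. Of the 24, 19 rose by at least 1 on the log2 scale. The sensor Egln1 (PHD2), the main hydroxylase of HIF alpha, had 169, 151 and 158 FPKM in coculture, against 22.4, 21.7 and 25.1 FPKM in monoculture (log2 change 2.73 ± 0.07, adjusted p = 1.14e-16). Egln2, a member of the family not known as a HIF target, had 26.7, 26.3 and 28.3 FPKM in coculture, against 30.6, 30.3 and 30.1 FPKM in monoculture and was not called (log2 change −0.16, adjusted p = 0.59). The transcripts of the alpha subunits were not called either. Hif1a had 37.9, 41.2 and 38.7 FPKM in coculture, against 44.9, 47.4 and 47.3 FPKM in monoculture (log2 change −0.24 ± 0.12, adjusted p = 0.139), and Epas1, which encodes HIF-2 alpha, stayed under 1 FPKM in all 6 libraries. HIF alpha subunits are controlled mainly at the level of the protein, which RNA does not measure. HIF activity as a cause of these changes was not tested. Vegfa, the growth factor of blood vessels, had 163, 156 and 168 FPKM in coculture, against 94.4, 92.3 and 91.7 FPKM in monoculture (log2 change 0.80 ± 0.05, adjusted p = 6.24e-10). Pgf, a related ligand that was picked here after its values were seen, had 29.98, 37.5 and 30.6 FPKM in coculture, against 7.70, 7.79 and 7.06 FPKM in monoculture (log2 change 1.98 ± 0.08, adjusted p = 1.01e-13).

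Further genes of mitochondria, matrix and signalling that are linked to hypoxia mostly rose too. HIF binding to them was not tested. Bnip3 had 203, 219.7 and 201 FPKM in coculture, against 21.8, 22.1 and 22.9 FPKM in monoculture, and its relative Bnip3l, also a mitophagy receptor, had 84.4, 86.3 and 83.9 FPKM in coculture, against 38.4, 37.7 and 37.2 FPKM in monoculture (log2 change 1.15 ± 0.07, adjusted p = 1.73e-10). Ndrg1, a stress-induced gene of epithelia, had 95.4, 98.2 and 97.03 FPKM in coculture, against 36.5, 35.4 and 35.5 FPKM in monoculture (log2 change 1.41 ± 0.04, adjusted p = 1.38e-15). Higd1a (2.22 ± 0.13), which binds the respiratory chain, and the mitochondrial adenylate kinase Ak4 (2.46 ± 0.08) rose as well. Among enzymes that modify collagen, P4ha2 had 44.1, 42.8 and 44.2 FPKM in coculture, against 4.44, 5.17 and 5.16 FPKM in monoculture, and P4ha1 (1.38 ± 0.09) and the lysyl hydroxylases Plod2 (2.63 ± 0.08) and Plod1 (0.38) rose. Loxl2 had 15.5, 13.7 and 12.4 FPKM in coculture, against 0.320, 0.431 and 0.515 FPKM in monoculture. Ankrd37 had 17.8, 17.1 and 19.2 FPKM in coculture, against 2.11, 1.16 and 1.98 FPKM in monoculture (log2 change 2.81 ± 0.12, adjusted p = 3.29e-13) and Anxa2 432, 448 and 425 in coculture, against 87.2, 87.3 and 86.01 in monoculture (log2 change 2.31 ± 0.05, adjusted p = 2.98e-17). The histone demethylases Kdm3a (0.94) and Kdm4b (0.81), which like the prolyl hydroxylases use oxygen, rose by less. The exception was Stc2, a paralog of Stc1, which fell (6.66, 6.76 and 7.34 FPKM in coculture, against 10.8, 8.95 and 9.72 FPKM in monoculture; log2 change −0.45 ± 0.06, adjusted p = 1.25e-05). Ddit4, an inhibitor of mTORC1, had 48.7, 42.97 and 47.4 FPKM in coculture, against 33.6, 32.04 and 29.3 FPKM in monoculture, without overlap, but was not called (log2 change 0.54 ± 0.29, adjusted p = 0.186).

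The glycolytic pathway rose at nearly every step. Of 22 tested members 19 rose and 1 fell, with a median change of 1.46. The glucose transporter GLUT1, Slc2a1, had 233, 215 and 231 FPKM in coculture, against 54.9, 51.7 and 53.8 FPKM in monoculture (log2 change 2.06 ± 0.06, adjusted p = 1.15e-15). Hexokinase Hk2 had 56.5, 56.1 and 56.95 FPKM in coculture, against 20.2, 19.6 and 18.8 FPKM in monoculture (log2 change 1.49 ± 0.05, adjusted p = 4.9e-15), and Hk1 rose by 1.36 ± 0.09. The 3 phosphofructokinase genes differed. Pfkp, the platelet form, had 13.9, 13.6 and 14.03 FPKM in coculture, against 0.955, 1.09 and 1.10 FPKM in monoculture. All 3 cocultures were far above the monocultures. The liver form Pfkl rose by 1.57 ± 0.07, and the muscle form Pfkm fell (9.67, 9.96 and 10.2 FPKM in coculture, against 13.98, 12.7 and 12.04 FPKM in monoculture; log2 change −0.34 ± 0.07, adjusted p = 0.000448). Pgk1 had 1544, 1662 and 1566 FPKM in coculture, against 373, 362 and 356 FPKM in monoculture (log2 change 2.12 ± 0.05, adjusted p = 6.98e-17). Pyruvate kinase Pkm had 1176, 1185 and 1200.3 FPKM in coculture, against 407, 396 and 388 FPKM in monoculture (log2 change 1.58 ± 0.08, adjusted p = 4.02e-12). Aldoa (1.19 ± 0.10), Tpi1 (1.55 ± 0.08), Pgam1 (1.52 ± 0.05), Eno1 (1.42 ± 0.06) and Gpi1 (0.90 ± 0.06), which cover the steps between, rose too. Gapdh gave no usable value, with 112, 2.59 and 2.72 FPKM in coculture, against 2.26, 2.12 and 20.8 FPKM in monoculture (adjusted p = 0.631). The genome holds many copies of this gene, and the sources used here do not say how reads were shared among them. Why single libraries stood apart was not tested.

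Genes of lactate production and export rose with them, as did kinases that hold back pyruvate oxidation. Ldha, which turns pyruvate into lactate, had 713, 710.5 and 728 FPKM in coculture, against 216, 217 and 211 FPKM in monoculture (log2 change 1.74 ± 0.08, adjusted p = 6.28e-13). Slc16a3 had 21.8, 19.7 and 22.4 FPKM in coculture, against 3.87, 3.43 and 2.89 FPKM in monoculture (log2 change 2.35 ± 0.19, adjusted p = 6.11e-09), and the other lactate carrier of the list, Slc16a1, rose by 0.13 ± 0.05 (adjusted p = 0.0419), a call that 9 of 15 alternative settings did not make. Pdk1, a kinase that blocks pyruvate dehydrogenase, had 22.4, 23.2 and 22.6 FPKM in coculture, against 5.92, 6.33 and 6.12 FPKM in monoculture (log2 change 1.73 ± 0.08, adjusted p = 6.44e-13), and Pdk3 rose by 1.15 ± 0.07. Pdha1, a subunit of the enzyme those kinases block, fell (71.2, 77.1 and 73.1 FPKM in coculture, against 99.4, 98.7 and 98.9 FPKM in monoculture; log2 change −0.42 ± 0.06, adjusted p = 1.07e-05); it was picked after its values were seen. So were 4 genes of glycogen synthesis. Gys1, glycogen synthase, had 68.9, 63.2 and 66.4 FPKM in coculture, against 20.997, 20.7 and 22.1 FPKM in monoculture (log2 change 1.59 ± 0.04, adjusted p = 1.15e-16), the branching enzyme Gbe1 rose by 2.15 ± 0.11 and the phosphoglucomutase Pgm2 by 2.41 ± 0.06. Gyg, glycogenin, which primes glycogen chains, fell instead (16.8, 20.6 and 18.1 FPKM in coculture, against 28.3, 27.8 and 25.7 FPKM in monoculture; log2 change −0.54 ± 0.07, adjusted p = 1.2e-05).

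**Figure D2:**
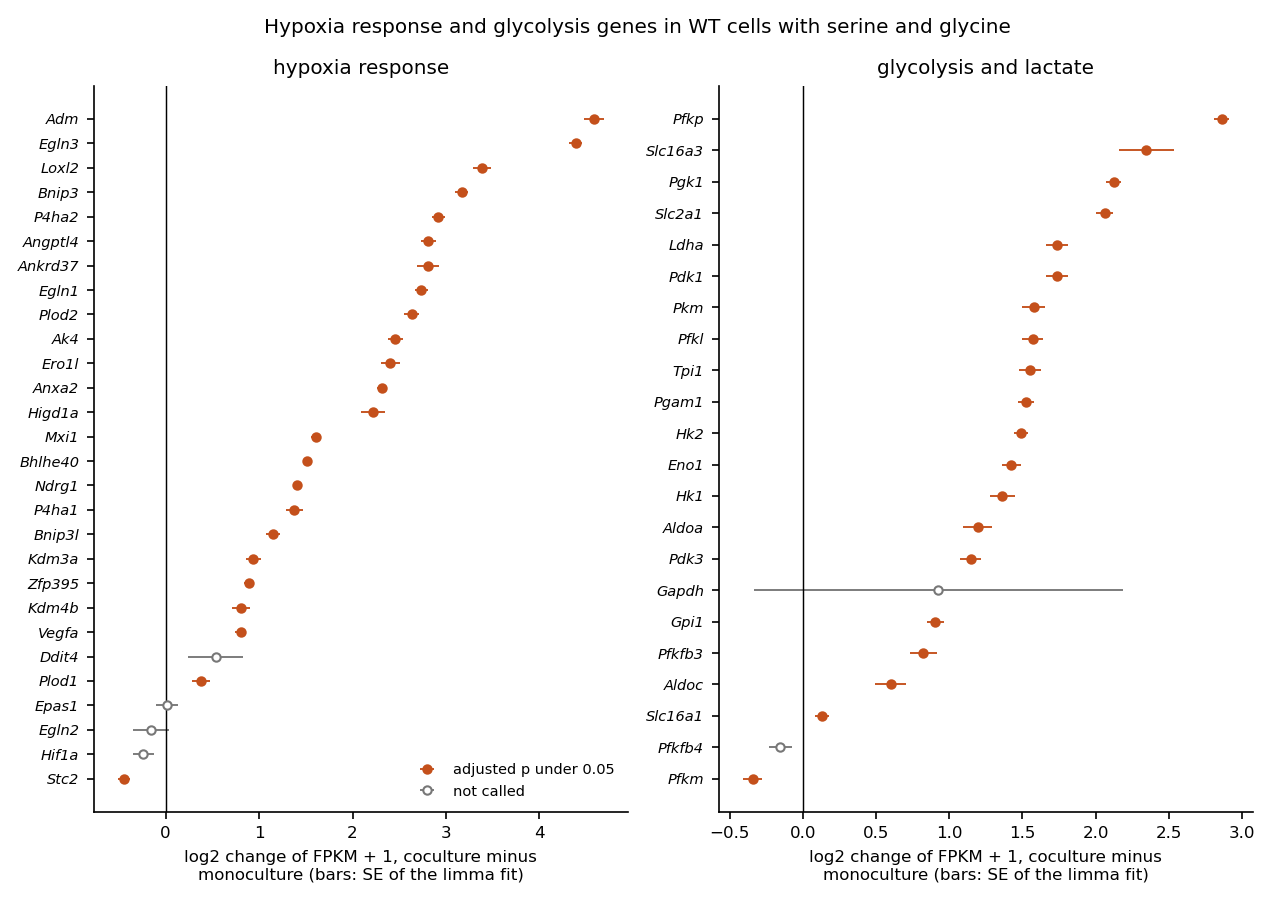
Log2 change of FPKM + 1, coculture minus monoculture, with its standard error from the limma fit, for tested hypoxia response (left) and glycolysis (right) genes; filled points were called at an adjusted p under 0.05. Nearly all points lie right of 0, up to 4.58 for Adm, with Stc2 (−0.45) and Pfkm (−0.34) called on the left.

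Nuclear genes of the tricarboxylic acid cycle and respiratory chain shifted down by small amounts. Of 38 tested members 17 fell and 1 rose, with a median of −0.21, and in TPM 22 fell and 1 rose and with voom 25 fell and 0 rose. In WT cells free of serine and glycine only 7 fell and 2 rose with coculture, with a median of 0.01. In KO cells with both, 16 fell and 1 rose, with a median of −0.14. Ndufv1, a complex I subunit, had 29.8, 28.5 and 27.5 FPKM in coculture, against 40.5, 40.7 and 38.99 FPKM in monoculture (log2 change −0.47 ± 0.07, adjusted p = 4.8e-05). All 3 subunits of isocitrate dehydrogenase 3, Idh3a (−0.38), Idh3b (−0.36) and Idh3g (−0.36), fell, as did Sdha (−0.32) of complex II. Cox7a2, a complex IV subunit, rose by 0.25 ± 0.09 (adjusted p = 0.032), a call made by 8 of 15 alternative settings. None of the 13 mitochondrially encoded genes was called (0 of 13), and their changes ran from −0.35 to 0.28.

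Cholesterol synthesis fell across the pathway. SREBP2 (Srebf2) drives these genes when sterols in the endoplasmic reticulum (ER) are low, and Insig1 and Scap hold or carry it. Of 27 tested members 22 fell and 0 rose, with a median of −0.43. Insig1 (ENSMUSG00000045294, chromosome 5, 28071363 to 28078662) had 39.1, 40.2 and 40.2 FPKM in coculture, against 77.5, 77.6 and 78.02 FPKM in monoculture (log2 change −0.95 ± 0.04, adjusted p = 6.28e-13). Idi1, which makes the activated isoprene unit, had 9.73, 10.8 and 9.80 FPKM in coculture, against 18.9, 18.9 and 19.4 FPKM in monoculture (log2 change −0.86 ± 0.18, adjusted p = 0.00085). Mvd, which makes isopentenyl pyrophosphate from a mevalonate derivative, had 27.7, 27.4 and 30.4 FPKM in coculture, against 52.4, 48.7 and 49.8 FPKM in monoculture (log2 change −0.80 ± 0.20, adjusted p = 0.00523). The groups did not overlap for any of these 3. Falls came both early in the pathway, in Hmgcs1 (−0.42) and Mvk (−0.43), and late in it, in Cyp51 (−0.62), Nsdhl (−0.75) and Dhcr7 (−0.71). Srebf2 itself (−0.33, adjusted p = 0.0386) fell by less and kept its call in 8 of 15 alternative settings. Scap was not called, at 13.2, 12.7 and 12.9 FPKM in coculture, against 12.8, 12.8 and 12.998 FPKM in monoculture (adjusted p = 0.979). The list's median was lower still after quantile normalization (−0.45), TPM (−0.52) and voom (−0.56).

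Fatty acid genes split. Of 19 tested members 9 fell (47.4%) and 3 rose (15.8%), with a median of −0.20. Among all tested genes 14.9% were lower and 16.3% higher. The desaturase Scd1 fell, with 81.05, 80.8 and 80.6 FPKM in coculture, against 143, 149 and 149.8 FPKM in monoculture (log2 change −0.86 ± 0.08, adjusted p = 2.98e-08), and its paralog Scd2 rose, with 544, 519 and 524 FPKM in coculture, against 391, 402 and 399 FPKM in monoculture (log2 change 0.41 ± 0.07, adjusted p = 6.92e-05). The elongase Elovl6 fell (2.42, 2.83 and 2.45 FPKM in coculture, against 5.52, 6.62 and 5.14 FPKM in monoculture; log2 change −0.92 ± 0.10, adjusted p = 3.59e-07), as did Elovl5 (−0.72) and the desaturase Fads2 (−0.59). Malic enzyme Me1, a source of NADPH, rose (212, 216 and 211 FPKM in coculture, against 94.2, 97.5 and 97.8 FPKM in monoculture; log2 change 1.13 ± 0.09, adjusted p = 9.62e-09). Fasn, fatty acid synthase, was not called (−0.20, adjusted p = 0.0962). Among 21 genes of lipid and lipoprotein handling 11 rose and 3 fell, with a median of 0.35, and with voom 11 rose and 6 fell. Hilpda, a lipid droplet protein that blocks lipolysis, had 198, 193 and 207 FPKM in coculture, against 41.5, 43.9 and 42.2 FPKM in monoculture (log2 change 2.20 ± 0.06, adjusted p = 1.15e-16). Uptake receptors Lrp1 (1.79 ± 0.06) and Vldlr (1.26 ± 0.09) rose, and so did Ppard (1.07 ± 0.10), a nuclear receptor for fatty acids, and the droplet coat gene Plin2 (0.39 ± 0.04). Rbp4, the retinol carrier, fell (66.7, 57.2 and 64.04 FPKM in coculture, against 145, 146 and 144 FPKM in monoculture; log2 change −1.20 ± 0.09, adjusted p = 3.25e-09).

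Lysosomal genes fell as well. TFEB and its relatives switch on lysosomal hydrolases and membrane proteins together. Of 31 tested members 20 fell and 1 rose, with a median of −0.29. Hexa (ENSMUSG00000025232, chromosome 9, 59539540 to 59565109), a subunit of the enzyme that degrades GM2 ganglioside, had 25.7, 25.2 and 27.97 FPKM in coculture, against 68.6, 67.5 and 65.7 FPKM in monoculture (log2 change −1.32 ± 0.08, adjusted p = 4.34e-11). Gpnmb, a lysosomal membrane glycoprotein, had 0.367, 0.720 and 0.393 FPKM in coculture, against 3.44, 3.71 and 3.88 FPKM in monoculture (log2 change −1.65 ± 0.09, adjusted p = 1.18e-11). The sialidase Neu1 (−0.72 ± 0.07), the galactosidase Gla (−0.65 ± 0.11), acid ceramidase Asah1 (−0.61 ± 0.10) and the cathepsins Ctsz (−0.41), Ctsb (−0.31) and Ctsl (−0.26) fell. The activator precursor Psap was the only riser (0.19 ± 0.06, adjusted p = 0.0144), and it was not called after quantile normalization or with voom, which left 0 rises there.

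**Figure D3:**
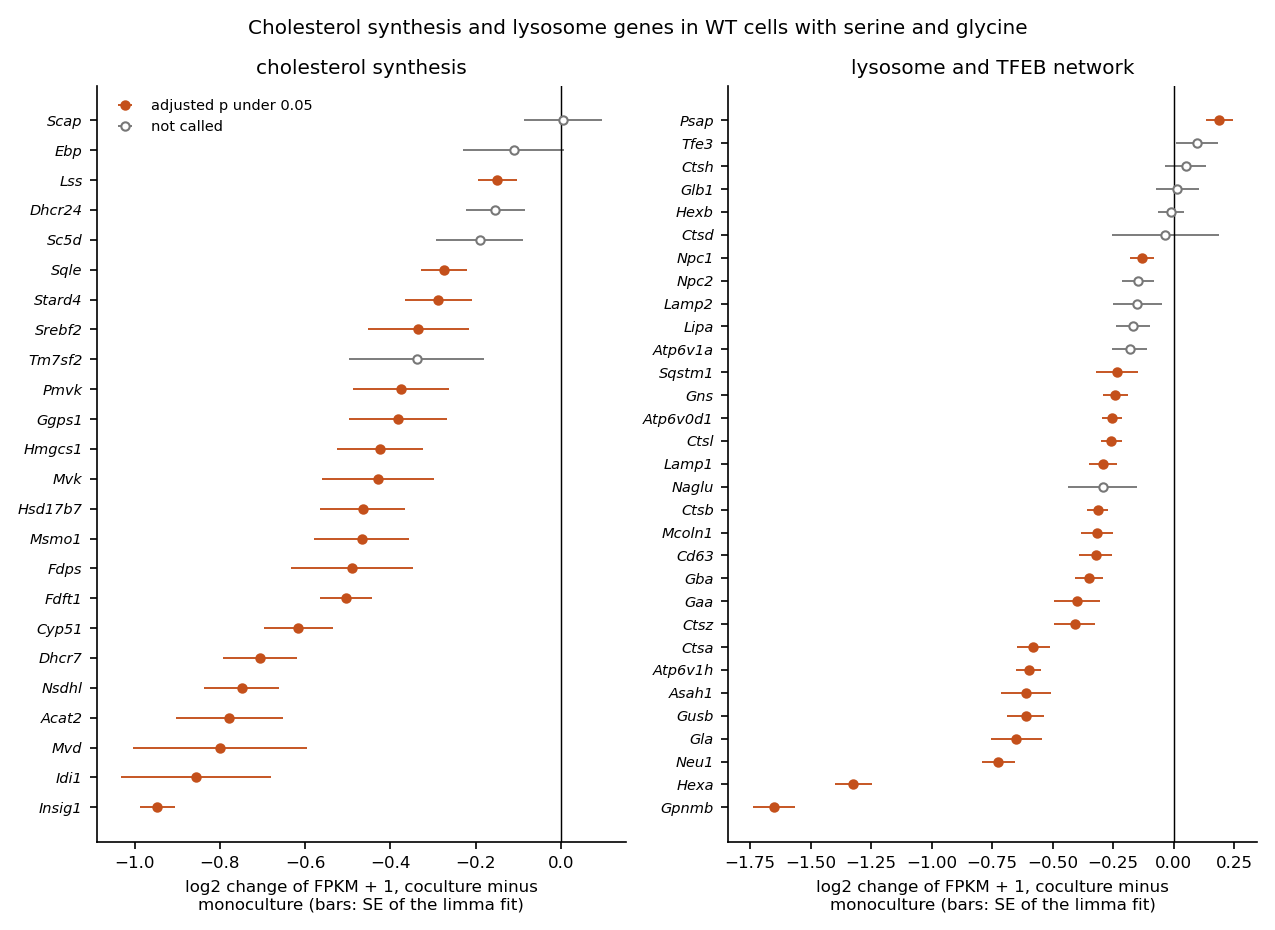
Log2 change of FPKM + 1, coculture minus monoculture, with its standard error from the limma fit, for tested cholesterol synthesis (left) and lysosome (right) genes; filled points were called at an adjusted p under 0.05. Most points lie left of 0, with Insig1 (−0.95) and Gpnmb (−1.65) lowest, and Psap (0.19) is the one called point on the right.

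Antioxidant and iron genes fell more often than they rose. Of 31 tested NRF2 and glutathione genes 13 fell (41.9%) and 7 rose (22.6%), with a median of −0.25. Among all tested genes 14.9% were lower and 16.3% higher. After TPM scaling 15 of the list fell and 2 rose, and with voom 16 fell and 1 rose. Osgin1 (−1.10 ± 0.19), the cystine transporter Slc7a11 (6.47, 7.25 and 6.64 FPKM in coculture, against 9.61, 9.73 and 9.88 FPKM in monoculture; log2 change −0.46 ± 0.09, adjusted p = 0.000425), Gstm1 (−0.57), Gpx1 (−0.59) and glutathione reductase Gsr (−0.43) fell. Hmox1, heme oxygenase 1, went against them with 204, 202 and 210.2 FPKM in coculture, against 76.7, 72.98 and 74.1 FPKM in monoculture (log2 change 1.45 ± 0.09, adjusted p = 1.42e-10). Of 13 iron and metallothionein genes 2 rose (15.4%, near the 16.3% of all tested genes) and 5 fell (38.5%). The ferritin heavy chain Fth1 had 1572, 1426 and 1593 FPKM in coculture, against 2409, 2426 and 2437 FPKM in monoculture (log2 change −0.66 ± 0.07, adjusted p = 3.59e-07), and the iron-binding Lcn2 (−0.90) and the exporter Slc40a1 (−0.41) fell. Metallothionein Mt1 rose (303, 294 and 315 FPKM in coculture, against 83.1, 91.4 and 106 FPKM in monoculture; log2 change 1.70 ± 0.09, adjusted p = 1.18e-11).

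Serine, one-carbon and amino acid genes moved in both directions. Among the 25 tested enzymes of serine and one-carbon metabolism were 6 rises (24%) and 8 falls (32%), with a median of −0.13. Among all tested genes 16.3% were higher and 14.9% lower. The list had 4 rises and 10 falls in TPM and 4 rises and 11 falls with voom. Besides Phgdh, the next enzyme of serine synthesis, Psat1, rose (141, 141 and 133 FPKM in coculture, against 108, 106 and 104 FPKM in monoculture; log2 change 0.38 ± 0.05, adjusted p = 1.56e-05), while the last, Psph, fell by less (−0.20 ± 0.06, adjusted p = 0.0175). The largest rise was in the mitochondrial formate enzyme Mthfd1l (68.01, 68.98 and 67.4 FPKM in coculture, against 29.9, 28.3 and 31.2 FPKM in monoculture; log2 change 1.17 ± 0.04, adjusted p = 1.16e-14), followed by the glycine decarboxylase Gldc (4.88, 4.40 and 4.53 FPKM in coculture, against 2.40, 1.74 and 1.75 FPKM in monoculture; log2 change 0.92 ± 0.08, adjusted p = 1.21e-08). Its partner in glycine cleavage, Gcsh, fell (−0.35 ± 0.06), as did Ahcy (−0.42 ± 0.07), Cth (−0.34 ± 0.05) and Shmt1 (−0.27). Shmt2, the mitochondrial serine hydroxymethyltransferase, was not called (103, 102 and 111 FPKM in coculture, against 121, 120.2 and 123 FPKM in monoculture; adjusted p = 0.0541).

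Of 30 tested targets of ATF4, the transcription factor of the amino acid response, 6 rose (20%) and 7 fell (23.3%). The shares over all tested genes were 16.3% and 14.9%. In TPM 4 of the ATF4 targets rose and 9 fell, and with voom 3 rose and 9 fell. Asns, asparagine synthetase and a standard readout of that response, had 127, 117 and 118 FPKM in coculture, against 118, 123 and 121 FPKM in monoculture and was not called (adjusted p = 0.975). Vldlr led the rises (36.5, 37.1 and 33.8 FPKM in coculture, against 14.2, 15.2 and 13.9 FPKM in monoculture), and Ddit3 (−0.37) and Atf3 (−0.34) fell. Amino acid transporters gave 4 rises and 4 falls among 16 (25% each way). Their median of 0.02 turned to −0.06 after quantile normalization, −0.04 in TPM and −0.07 with voom. The neutral amino acid transporter Slc38a2 rose (101, 101 and 97.96 FPKM in coculture, against 74.3, 77.98 and 76.1 FPKM in monoculture; log2 change 0.39 ± 0.06, adjusted p = 9.81e-05) and the aromatic amino acid carrier Slc16a10 fell (3.62, 3.58 and 3.40 FPKM in coculture, against 6.54, 7.11 and 6.92 FPKM in monoculture; log2 change −0.79 ± 0.06, adjusted p = 6.15e-09). The cytosolic aminoacyl-tRNA synthetases, which charge tRNAs, had 4 rises (20%) and 2 falls (10%) among 20, with a median of −0.04. They had 0 rises and 4 falls in TPM and 0 rises and 6 falls with voom. Of 19 enzymes of arginine, proline and glutamine metabolism 1 rose and 7 fell, among them Odc1 (−0.41) and glutamine synthetase Glul (−0.31).

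Protein folding and ribosome genes changed by small amounts with a few large exceptions. Of 29 ER chaperone and unfolded protein response genes 9 rose and 4 fell, with a median of 0.11 that was −0.03 after quantile normalization. The count was 5 rises and 4 falls after quantile normalization, 5 rises and 5 falls in TPM and 6 rises and 5 falls with voom. Ero1l, an ER oxidase and a HIF target, had 247, 254 and 241 FPKM in coculture, against 45.2, 46.1 and 46.3 FPKM in monoculture (log2 change 2.40 ± 0.10, adjusted p = 3.29e-13). P4hb, a disulfide isomerase that is also a subunit of collagen prolyl hydroxylase, had 698, 693 and 706 FPKM in coculture, against 400.4, 398 and 395 FPKM in monoculture (log2 change 0.81 ± 0.04, adjusted p = 2.05e-12). The chaperone Hspa5 (BiP) had 1631, 1831 and 1655 FPKM in coculture, against 1301, 1307 and 1280.1 FPKM in monoculture (log2 change 0.39 ± 0.07, adjusted p = 0.000238). The stress sensor Ern1 fell (−0.44 ± 0.06). Of 19 heat shock genes 8 rose, led by Hspa1b (1.04 ± 0.10) and Dnajb1 (0.74 ± 0.08), and 4 fell, led by Hspb1 (−0.74 ± 0.17), while in TPM 4 rose and 4 fell and with voom 6 rose and 4 fell. Ribosome biogenesis gave 12 falls and 0 rises among 30 (median −0.22), with 16 falls in TPM and 19 with voom, and Wdr12 was lowest of those called (−0.44 ± 0.09). Of 45 cytosolic ribosomal protein genes 4 fell and 0 rose with FPKM as deposited, and 18 fell after quantile normalization, 12 in TPM and 15 with voom.

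S phase genes rose about as often as all tested genes, and mitosis genes less often. Of 42 DNA replication and S phase genes 8 rose (19.0%) and 2 fell (4.76%), against 16.3% and 14.9% of all tested genes. Their median of 0.01 turned to −0.05 after quantile normalization, −0.04 in TPM and −0.08 with voom. In TPM 8 rose and 5 fell, and with voom 8 rose and 7 fell. Rrm2, the ribonucleotide reductase subunit that sets nucleotide supply, had 5.71, 7.02 and 5.23 FPKM in coculture, against 3.17, 2.81 and 2.47 FPKM in monoculture (log2 change 0.87 ± 0.12, adjusted p = 1.53e-05), and cyclin Ccne2 rose by 0.64 ± 0.14. Of 30 mitosis genes 3 rose (10%), led by the kinesin Kif23 (0.88 ± 0.10), and 0 fell. The proliferation marker Mki67 was at 0.04 (adjusted p = 0.78). Cdkn1a (p21), an inhibitor of cyclin-dependent kinases and a target of p53, had 49.9, 49.1 and 50.1 FPKM in coculture, against 8.14, 9.08 and 8.85 FPKM in monoculture (log2 change 2.39 ± 0.11, adjusted p = 2.76e-12). It was 1 of 4 p53 targets that rose, with Mdm2 (0.80 ± 0.09) and Plk2 (0.75 ± 0.06), of 23 tested. Another 4 fell, among them Aen (−0.49) and Zmat3 (−0.39), and with voom 4 rose and 7 fell. The shares, 17.4% each way, were near those of all tested genes (16.3% higher and 14.9% lower).

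Ligands of the EGF receptor and AP-1 genes rose. Of 8 tested EGF family genes 6 rose (75%) and 1 fell (12.5%), against 16.3% higher and 14.9% lower among all tested genes. Areg, amphiregulin, had 57.8, 63.5 and 62.4 FPKM in coculture, against 24.0005, 24.9 and 28.2 FPKM in monoculture (log2 change 1.22 ± 0.16, adjusted p = 4.42e-06). The ligands Btc (1.04 ± 0.12), Ereg (0.86 ± 0.13) and Tgfa (0.40 ± 0.06) and the feedback inhibitor Errfi1 (0.71 ± 0.05) rose, and the receptor Erbb2 fell (−0.25 ± 0.07). Of 30 immediate early and AP-1 genes 14 rose (46.7%) and 3 fell (10%), with a median of 0.23, and with voom 12 rose and 6 fell. Fosl2 had 19.2, 19.6 and 19.3 FPKM in coculture, against 9.75, 8.65 and 8.999 FPKM in monoculture (log2 change 1.01 ± 0.10, adjusted p = 1.1e-07), and Klf2 (1.15 ± 0.20), Fos (0.90 ± 0.07) and Fosl1 (0.88 ± 0.09) rose. Of 15 circadian genes 8 rose and 2 fell. The repressor Bhlhe40, also on the hypoxia list, had 54.7, 57.1 and 57.9 FPKM in coculture, against 18.9, 18.8 and 19.6 FPKM in monoculture (log2 change 1.52 ± 0.05, adjusted p = 2.03e-15), Per1 (0.83 ± 0.12) and Bhlhe41 (0.83 ± 0.13) rose, and Nr1d2 (−0.59 ± 0.09) and Dbp (−0.62 ± 0.18) fell. Of 10 genes of the aryl hydrocarbon response 3 rose and 3 fell (30% each way). The rises were led by Cyp2s1 (39.2, 36.6 and 36.2 FPKM in coculture, against 2.34, 2.38 and 2.36 FPKM in monoculture). The falls included the classical target Cyp1b1 (−0.31 ± 0.11), a call made by 9 of 15 alternative settings.

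Inflammatory genes split as well. Of 17 NF-kB and inflammatory mediators 7 fell and 4 rose, with a median of −0.11. Il33, an alarm cytokine of epithelia, had 5.70, 5.95 and 4.75 FPKM in coculture, against 0.329, 0.319 and 0.223 FPKM in monoculture (log2 change 2.32 ± 0.12, adjusted p = 1.45e-11). Lif, a cytokine of the interleukin 6 family, had 11.9, 14.9 and 14.3 FPKM in coculture, against 3.01, 2.77 and 2.98 FPKM in monoculture (log2 change 1.90 ± 0.10, adjusted p = 1.74e-11). The chemokine Ccl20 fell (0.802, 0.788 and 0.993 FPKM in coculture, against 5.66, 5.29 and 5.80 FPKM in monoculture; log2 change −1.82 ± 0.21, adjusted p = 1.54e-06), and the subunits Relb (−0.61), Nfkb2 (−0.49) and Nfkb1 (−0.25) fell with it, and 8 of 15 alternative settings also made the call for Nfkb2. Tnfaip3, the inhibitor A20 (1.36 ± 0.08), and cyclooxygenase Ptgs2 (0.74 ± 0.09) rose. Of 35 listed interferon response and antigen presentation genes only 11 passed the FPKM filter, and of these 7 fell and 2 rose. The class I light chain B2m had 81.2, 76.7 and 82.4 FPKM in coculture, against 145, 155 and 165 FPKM in monoculture (log2 change −0.94 ± 0.11, adjusted p = 2.17e-06), and Tapbp (−0.56) and Irf1 (−0.54) fell. The class I heavy chain H2-K1 rose (59.5, 59.2 and 59.8 FPKM in coculture, against 30.4, 29.5 and 27.2 FPKM in monoculture; log2 change 1.01 ± 0.10, adjusted p = 7.97e-08), although its close relatives among the class I genes make the split of reads uncertain. Cd274 (PD-L1), a ligand that restrains T cells, fell (3.27, 3.40 and 2.64 FPKM in coculture, against 7.84, 9.61 and 8.85 FPKM in monoculture; log2 change −1.25 ± 0.11, adjusted p = 1.72e-08). Of 14 STAT3 and acute phase genes 3 rose, led by Bcl3 (1.07), and 3 fell. The shares were 21.4% each way, against 16.3% higher and 14.9% lower among all tested genes. The list's median of 0.04 turned negative under all 3 other scalings (−0.05 to −0.03).

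Several keratin, laminin and integrin genes rose. Of 22 epithelial genes 12 rose and 3 fell, with a median of 0.32. Krt19 had 696, 664 and 730.4 FPKM in coculture, against 69.4, 63.95 and 67.999 FPKM in monoculture, Krt8 (1.10 ± 0.07) and Krt20 (1.72 ± 0.08) rose, as did the desmosome genes Pkp2 (1.24 ± 0.07) and Dsp (1.02 ± 0.08). E-cadherin, Cdh1, had 117, 109 and 113 FPKM in coculture, against 116, 117 and 114 FPKM in monoculture and was not called (adjusted p = 0.54). Muc1 (−0.68 ± 0.06) and the pore-forming claudin Cldn2 (−1.25 ± 0.09) fell. Of 12 integrin genes 9 rose and 2 fell, with a median of 0.51. Itga2, the collagen-binding alpha 2 chain, had 62.1, 64.6 and 61.5 FPKM in coculture, against 9.24, 10.1 and 10.1 FPKM in monoculture (log2 change 2.56 ± 0.09, adjusted p = 3.5e-14), and Itgb4, the laminin-binding beta 4 chain, rose by 1.13 ± 0.10. Of 14 laminin, collagen and basement membrane genes 6 rose and 1 fell. Lamb3, an epithelial laminin beta chain, had 3.57, 4.34 and 4.10 FPKM in coculture, against 0.253, 0.409 and 0.194 FPKM in monoculture (log2 change 1.96 ± 0.11, adjusted p = 3.21e-11), and Lamb1 (1.46 ± 0.04) and nidogen Nid1 (1.32 ± 0.05) rose, while Lamc1 fell (−0.49 ± 0.05).

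Genes of TGF-beta, YAP and mesenchymal cells gave 7 rises and 3 falls among 23, with a median of 0.01 that turned to −0.01 in TPM and −0.04 with voom. After rescaling 5 rose and 5 fell in TPM, and 5 rose and 7 fell with voom. The matrix protein fibronectin Fn1 had 63.7, 60.4 and 62.6 FPKM in coculture, against 18.6, 19.4 and 18.3 FPKM in monoculture (log2 change 1.68 ± 0.05, adjusted p = 8.06e-16) and vimentin Vim 1194, 1161 and 1192 in coculture, against 611, 607 and 615 in monoculture (log2 change 0.95 ± 0.05, adjusted p = 3.19e-11). The receptor Axl fell (136, 133 and 130.4 FPKM in coculture, against 210.2, 207 and 205 FPKM in monoculture; log2 change −0.63 ± 0.08, adjusted p = 2e-06). Of 12 metalloproteinase and plasminogen genes 3 rose and 3 fell (25% each way). The rises included the urokinase receptor Plaur (0.64 ± 0.10), and the falls Mmp13 (−0.76 ± 0.12) and Timp2 (−0.56 ± 0.06). Of 9 cornified envelope genes 2 rose (22.2%, against 16.3% of all tested genes), Ppl (0.33) and Sprr1a (0.31), and 0 fell.

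**Figure D4:**
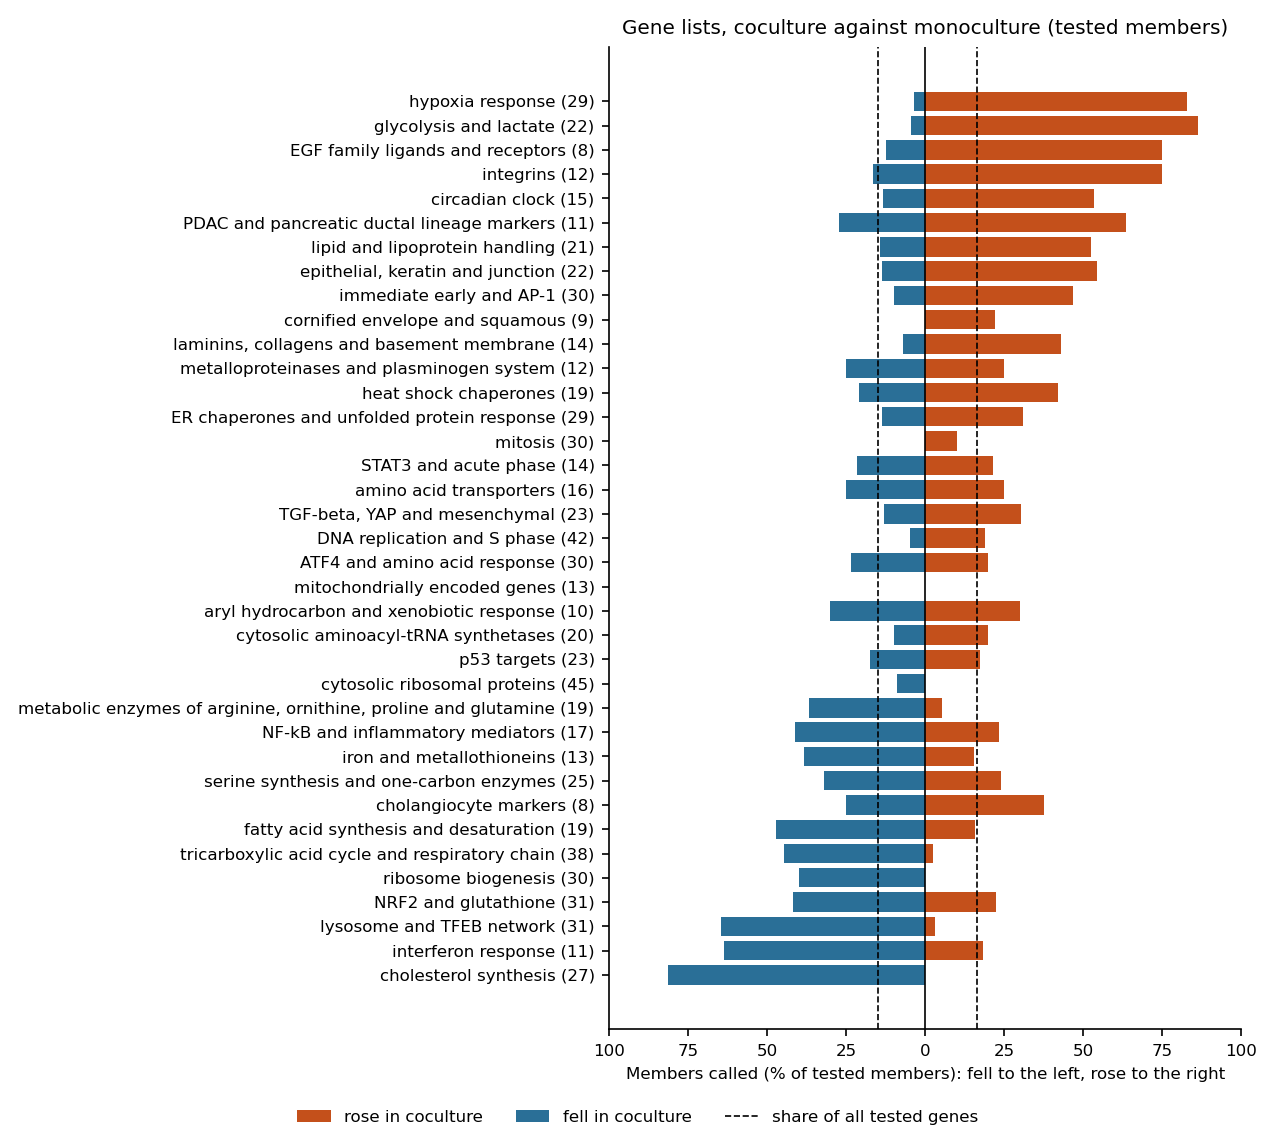
Share of the tested members of each gene list (number in brackets) that rose (to the right) or fell (to the left) in coculture at an adjusted p under 0.05, ordered by median change; dashed lines mark the share over all tested genes, 16.3% and 14.9%. Hypoxia (24 of 29) and glycolysis (19 of 22) stand at one end, and cholesterol synthesis (22 of 27) at the other.

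The largest falls were smaller than the largest rises and belonged to varied genes. Try5 (ENSMUSG00000036938, chromosome 6, 41311233 to 41316841), a trypsin family member whose near-identical copies make its reads uncertain, had 0.884, 0.177 and 1.04 FPKM in coculture, against 6.87, 6.42 and 8.19 FPKM in monoculture (log2 change −2.30 ± 0.20, adjusted p = 2.01e-08). Slco4a1, an organic anion transporter, had 12.6, 11.4 and 11.3 FPKM in coculture, against 36.4, 37.1 and 37.6 FPKM in monoculture (log2 change −1.58 ± 0.08, adjusted p = 7.36e-12). Tmem158 had 35.9, 27.5 and 34.8 FPKM in coculture, against 96.1, 96.3 and 99.1 FPKM in monoculture (log2 change −1.55 ± 0.32, adjusted p = 0.000782). Itih2 (−1.46 ± 0.11), a hyaluronan-binding protein, Depp1 (−1.43 ± 0.17), a FOXO target, Rasgrp3 (−1.43 ± 0.10), an activator of Ras proteins, and Trnp1 (−1.40 ± 0.24) followed. Cd14, a coreceptor for bacterial lipopolysaccharide that is also on the macrophage list, had 6.63, 5.42 and 6.95 FPKM in coculture, against 18.2, 18.2 and 17.2 FPKM in monoculture (log2 change −1.37 ± 0.13, adjusted p = 6.76e-08). The pantetheinase Vnn1 (−1.32 ± 0.13) and the membrane proteolipid Gpm6b (−1.17 ± 0.10) closed the list. The 15 largest falls were also called with the same sign in all 15 alternative settings.

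The same comparison was made in 2 other pairs of groups that share no library with this one. In WT cells free of serine and glycine coculture changed 3386 genes (28.1%), and in Phgdh KO cells given both 4824 genes (40%), 20.1% higher and 19.9% lower. Of the 1969 rises described above 91.77% had the same sign in the serine-free pair and 88.57% in the KO pair, and of the 1794 falls 93.59% and 88.57% did. Rises called in both made up 66.99% of these 1969 and 73.28% of the 1800 rises of the serine-free pair, and 69.48% of these and 56.32% of the 2429 rises of the KO pair. Across the 12061 genes, which are not independent replicates, the changes correlated at a Pearson r of 0.776 with the serine-free pair and 0.673 with the KO pair. The hypoxia list gave 24 rises and 1 fall in the serine-free pair and 25 rises and 1 fall in the KO pair, and cholesterol synthesis 20 falls and 13 falls, with 0 rises in each. Falls called in both made up 56.02% of the 1794 and 63.37% of the 1586 falls of the serine-free pair, and 59.92% of the 1794 and 44.89% of the 2395 falls of the KO pair. Adm rose by 4.53 in the serine-free pair and 3.99 in the KO pair, and Idi1 was at −0.70 in the serine-free pair and −0.41 in the KO pair.

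The interaction with serine and glycine asked whether the coculture effect in WT cells depended on their presence in the medium. It was called for 201 genes (1.67%), 150 of them with the more positive effect in medium with serine and glycine (1.24%) and 51 with the more negative (0.423%). Genes of the cell cycle stood on the negative side. Rrm2 averaged 5.99 ± 0.928 FPKM in coculture and 2.82 ± 0.346 FPKM in monoculture with serine and glycine, and 10.1 ± 0.336 FPKM in coculture and 2.04 ± 0.477 FPKM in monoculture without them (SD, n = 3 each; difference of log2 changes −1.02 ± 0.17, adjusted p = 0.00385). The cytokinesis gene Ect2 (−0.83 ± 0.17, adjusted p = 0.018), the replication inhibitor Gmnn (−0.77 ± 0.17, adjusted p = 0.0207), the helicase subunit Mcm3 (−0.67 ± 0.10, adjusted p = 0.000962) and E2f1 (−0.65 ± 0.14, adjusted p = 0.0193) followed. Of 42 S phase genes 9 had a negative interaction and 0 a positive one, and of 30 mitosis genes 4 and 0. The number called depended on single libraries: it was 118 without replicate 1 of the WT cocultures with serine and glycine, 131 and 126 without replicates 1 and 3 of their monocultures, 100 without replicate 1 of the serine-free cocultures and 107 without replicate 3 of the serine-free monocultures. It was 129 in TPM. With serine and glycine 8 S phase genes and 3 mitosis genes rose in coculture, against 25 S phase genes and 27 mitosis genes in the serine-free pair.

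On the positive side was Apoe, apolipoprotein E, which averaged 5.88 ± 0.271 FPKM in coculture and 2.79 ± 0.134 FPKM in monoculture with serine and glycine, and 3.18 ± 0.460 FPKM in coculture and 4.60 ± 0.674 FPKM in monoculture without them (1.28 ± 0.21, adjusted p = 0.0031). Its change had opposite signs in the 2 media. Plppr3 (0.88 ± 0.17, adjusted p = 0.0111), Leng8 (0.85 ± 0.19, adjusted p = 0.0228), the atypical cadherin Fat1 (0.75 ± 0.10, adjusted p = 0.000283) and the splicing factor Luc7l2 (0.74 ± 0.15, adjusted p = 0.0155) came next. The 150 genes on that side were long, with a median gene length of 9294.5 bases, against 3506 bases for the 51 on the other side and 3850 bases for all tested genes. The part of length in this result was not tested. Of the 10 genes named, Leng8, Luc7l2, Ect2, Gmnn and E2f1 lost the call when single libraries were left out or in TPM.

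The interaction with genotype asked whether the effect differed between WT and KO cells with serine and glycine. It was called for 1251 genes (10.4%), 650 with the more positive effect in WT cells (5.39%) and 601 with the more negative (4.98%). Genes on the positive side had a median length of 6073 bases, against 3612 bases on the negative side, and the part of length was not tested here either. Replicate 1 of the KO monocultures stood apart from its group (lowest correlation 0.9666), and 1144 genes were called without it. Il33 averaged 5.47 ± 0.635 FPKM in coculture and 0.290 ± 0.0587 FPKM in monoculture in WT cells, and 0.874 ± 0.154 FPKM in coculture and 0.694 ± 0.266 FPKM in monoculture in KO cells (2.17 ± 0.18, adjusted p = 2.06e-07). Fgfbp1, a carrier of fibroblast growth factors, rose in WT cells (6.28 ± 0.776 FPKM in coculture against 2.62 ± 0.321 FPKM in monoculture) and fell in KO cells (1.99 ± 0.502 FPKM in coculture against 4.02 ± 0.336 FPKM in monoculture; 1.76 ± 0.14, adjusted p = 2.06e-07). Apob, an apolipoprotein, averaged 68.6 ± 3.28 FPKM in coculture and 34.1 ± 0.437 FPKM in monoculture in WT cells, and 1.61 ± 0.162 FPKM in coculture and 2.26 ± 0.453 FPKM in monoculture in KO cells (1.30 ± 0.13, adjusted p = 1.95e-06). Plppr3 (1.39 ± 0.17, adjusted p = 3.56e-05) was also more positive in WT cells. Loxl2 was too (1.76 ± 0.14, adjusted p = 1.31e-07), but not with voom (0.45, adjusted p = 0.611). In KO cells it averaged 2.37 ± 0.0978 FPKM in coculture and 0.0997 ± 0.0481 FPKM in monoculture.

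More negative in WT cells was Sprr1a, a cornified envelope precursor, which averaged 204 ± 4.89 FPKM in coculture and 164 ± 11.5 FPKM in monoculture in WT cells, and 86.2 ± 3.01 FPKM in coculture and 12.5 ± 0.810 FPKM in monoculture in KO cells (−2.37 ± 0.08, adjusted p = 4.96e-13). The collagenase Mmp13 fell in WT cells (5.71 ± 0.806 FPKM in coculture against 10.3 ± 1.16 FPKM in monoculture) and rose in KO cells (14.6 ± 0.864 FPKM in coculture against 6.63 ± 1.40 FPKM in monoculture; −1.80 ± 0.17, adjusted p = 1.23e-06). Depp1 fell in WT cells, and in KO cells had 5.26 ± 0.123 FPKM in coculture against 4.62 ± 1.39 FPKM in monoculture (−1.62 ± 0.24, adjusted p = 0.000204). The water channel Aqp8 (−2.24 ± 0.15, adjusted p = 3.76e-08) and Prl2c5 (−2.40 ± 0.17, adjusted p = 7.1e-08), one of several near-identical prolactin family genes whose reads are uncertain, averaged 14.97 ± 0.686 and 7.30 ± 0.844 FPKM in KO cocultures and under 1 FPKM in the monocultures of both genotypes. Neither interaction was called with voom (adjusted p = 0.914 for Aqp8 and 0.332 for Prl2c5). In WT cells Aqp8 was called higher in coculture too (log2 change 1.54 ± 0.11, adjusted p = 1.11e-09). Among lists, 9 of 31 lysosome genes were more negative in WT cells and 0 more positive, and 12 of 30 ribosome biogenesis genes were more positive and 0 more negative.

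**Figure D5:**
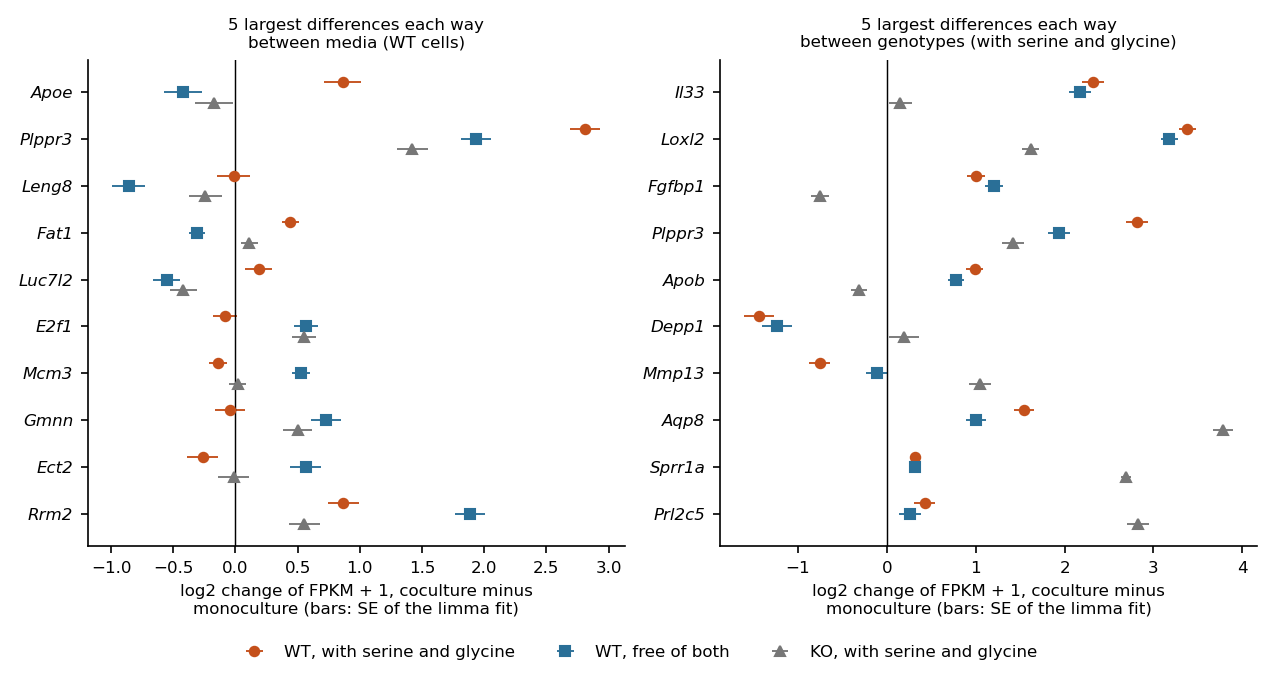
Log2 change of FPKM + 1, coculture minus monoculture, with its standard error from the limma fit, in WT cells with serine and glycine (circles), WT cells free of both (squares) and KO cells with serine and glycine (triangles), for the genes with the 5 largest differences each way between media (left) and between genotypes (right). Circles and squares are apart on the left and mostly close together on the right, where triangles stand off.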

How the data were processed

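The authors deposited FPKM per gene for 54532 genes in 24 libraries, with Ensembl identifiers and GRCm38 positions, and genes were followed by identifier. Per the submitters' processing notes, HISAT2 was the aligner and GRCm38 (mm10) the genome. The sources used here do not give the read counter, annotation release, use of strand or scaling factor. FPKM times gene length fell on whole reads for 100% of values (within 0.01 read), which gave 15740081 to 23479425 reads per library. The total used for scaling was 0.983 to 0.991 times the library's own total in the 3 cocultures and 1.047 to 1.048 times in the 3 monocultures, which is why other scalings were run. No pair of replicates was identical (0 pairs).

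Genes that reached 1 FPKM in 3 or more libraries were tested as log2(FPKM + 1) with limma 3.58.1 in R 4.3.3 (moderated, two-sided test with a mean-variance trend; 8 group means, 24 libraries, 16 residual degrees of freedom), tested first on simulated data. P-values were adjusted over the 12061 genes by the Benjamini-Hochberg method. A log2 change is given ± its standard error and a mean FPKM ± its SD (n = 3). The alternatives were a pseudocount of 0.1, other filters, quantile normalization, TPM, limma voom on the recovered reads, a replicate block, fewer libraries in the fit, and each library left out. The genes named are Phgdh, the 15 largest rises and 15 largest falls among called protein-coding genes without overlap and with a mean of at least 5 FPKM in the higher group, the 5 largest interactions each way, and leading, opposed or name-giving list members, with the exceptions stated; further members of a list, named for their place in the pathway, were chosen after their values were seen. Some genes that fall under this rule are not reported here. The members, lists and rules were chosen with earlier results of these data known.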

Additional observations from a re-analysis of the deposited data

Results flagged for a closer look

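The coculture effect differed between groups of libraries, by a test of the interaction itself, for the 20 gene results below, which are the 5 largest each way per interaction. Values are the log2 change in WT cells with serine and glycine minus the log2 change in the other pair. Against WT cells free of serine and glycine the differences were 1.28 for Apoe, 0.88 for Plppr3, 0.85 for Leng8, 0.75 for Fat1 and 0.74 for Luc7l2 on the positive side. On the negative side they were −1.02 for Rrm2, −0.83 for Ect2, −0.77 for Gmnn, −0.67 for Mcm3 and −0.65 for E2f1. Against KO cells with serine and glycine they were 2.17 for Il33, 1.76 for Loxl2, 1.76 for Fgfbp1, 1.39 for Plppr3 and 1.30 for Apob. The negative differences there were −2.40 for Prl2c5, −2.37 for Sprr1a, −2.24 for Aqp8, −1.80 for Mmp13 and −1.62 for Depp1. Groups of 3 libraries were not searched for single outlying values.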

How the results depend on the processing

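The coculture call count ranged over 2942 to 5134 in the 15 alternatives, against 3763, lowest with a filter of 5 FPKM (2942 of 7985 genes fitted) and highest with the 12 WT libraries alone. It was 3113 to 3216 with single libraries left out. Of 196 named genes called, 183 were called in every alternative run, and the other 13 lost the call at least once. The serine interaction fell to 129 genes, against 201, in TPM, and to 100 to 195 with single libraries left out. The genotype interaction stayed at 885 to 1604 genes, against 1251. The main fit did not pair libraries by replicate number, and the labels do not say whether they were paired. Deviations of same-numbered libraries correlated at 0.0238 to 0.0531. Each library correlated best with its own number, a hint from the data and not the design. With a replicate block 3577 genes were called for coculture, 159 for the serine interaction and 1062 for the genotype interaction. Changes of genes that were not called turned sign under some alternatives, which says nothing of stability. Scap was at −0.0548 in TPM, −0.081 with voom, −0.0098 after quantile normalization and −0.008 to 0.016 with single libraries left out. Epas1 was at −0.0216 in TPM, −0.0776 with voom, −0.0982 after quantile normalization and −0.0594 to 0.0484 with libraries left out, and Mki67 was at −0.0813 after quantile normalization. With single libraries left out Gapdh ran from −0.727 to 1.849, Asns from −0.0436 to 0.0171, Leng8 from −0.0391 to 0.032, Gmnn from −0.0934 to 0.0515 and E2f1 from −0.1726 to 0.03. Depth limits genes under about 1 FPKM, whose changes shrink on the log2(FPKM + 1) scale, and intervals from 3 libraries cover no variation between cultures that the labels do not record.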
